A study of Mus musculus with 2 samples.

Results

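Mitotic spindle and kinetochore genes are a set of 40 genes, of 32286 features measured, whose products build the spindle, attach chromosomes to it and drive cells through mitosis and cytokinesis. They were chosen as a list of symbols by known function. All 40 were found once among the measured features and all 40 had UMIs in both libraries. They were measured by droplet-based single-cell RNA sequencing (10x Genomics, 3' chemistry version 3.1, which counts unique molecular identifiers, UMIs, at the 3' end of each RNA). The cells were mouse muscle satellite cells, sorted by FACS from the biceps and recto femoris muscles at 5 days after injury. The animals carried a Pax3GFP allele over a normal one (Pax3GFP/+), in which GFP marks activity of the Pax3 locus, although the genotype field of both samples reads wild-type. One library held GFP+ (PAX3+) cells and the other GFP- (PAX3-) cells, and 20000 cells were loaded for each. The sources used here do not give the number, age or sex of the animals, whether muscles or animals were pooled, or how the injury was made.

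Satellite cells are the stem cells of skeletal muscle. They are quiescent at rest and, after injury, divide as myoblasts before most leave the cell cycle and fuse. Pax7 marks stem cells and early progenitors, Myod1 encodes a factor of activated and committed myoblasts, and Myog encodes a factor of terminal differentiation that accompanies cell cycle exit. Most of the 40 genes are transcribed late in the cycle, in G2 and mitosis. In this period cyclins A and B activate CDK1, kinetochores capture microtubules under the watch of the spindle checkpoint, and the anaphase-promoting complex then destroys cyclin B.

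A barcode was taken as a cell from 1000 UMIs and 500 genes upwards, if mitochondrial UMIs made up no more than 10%. This left 604 GFP+ cells with 11981352 UMIs (median 18534.5 per cell) and 2683 GFP- cells with 44264206 UMIs (median 14663 per cell). The median mitochondrial share was 2.48% and 4.46%. The libraries shared 2 cell barcodes. With 1 library per sorted fraction no difference between fractions has a replicate check, and no p-value is given. Every interval below is a 95% interval that covers counting error only. Pax7 had at least 1 UMI in 70.9% of GFP+ and 68.1% of GFP- cells. The 7 myogenic markers summed to 2871 CPM (UMIs scaled to 1e6 per library) in GFP+ and 2787 in GFP- cells. The 6 macrophage markers summed to 3311 and 348 CPM, the 5 mural markers to 1437 and 2019 CPM, the 4 fibro-adipogenic markers to 982 and 713 CPM, and the 4 glial and 4 endothelial markers to at most 14.8 CPM. Rgs5, 1 of the mural markers, had no UMI in 97.4% of GFP+ and 91.1% of GFP- cells, and the GFP+ mural sum came mainly from the other mural markers. No marker was at 0 except 2 of 4 glial and 2 of 4 endothelial genes in the GFP+ library.

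Promoters of genes expressed in G2 and mitosis are known to carry a cell cycle homology region (CHR), the site through which the DREAM and MuvB complexes act, and CCAAT boxes bound by NF-Y. The 160 bases before the transcription start are shown for 7 of the 40 genes, chosen because they span the layouts seen, from repeated motifs to none. Sequences are from RefSeq promoters on GRCm38.p6, written 5' to 3' on the gene's strand. Capitals mark the CHR letters TTTGAA or TTCGAA and the CCAAT box, on either strand, so that TTCAAA and ATTGG are the same motifs read from the opposite strand.
Cdk1: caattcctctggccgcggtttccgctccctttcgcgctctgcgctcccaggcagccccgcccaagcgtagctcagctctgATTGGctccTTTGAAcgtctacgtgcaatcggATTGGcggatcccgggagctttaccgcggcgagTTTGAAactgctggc
Ube2c: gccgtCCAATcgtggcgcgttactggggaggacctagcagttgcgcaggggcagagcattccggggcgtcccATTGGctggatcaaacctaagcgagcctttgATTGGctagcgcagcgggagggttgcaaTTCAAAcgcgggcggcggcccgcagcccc
Cdc20: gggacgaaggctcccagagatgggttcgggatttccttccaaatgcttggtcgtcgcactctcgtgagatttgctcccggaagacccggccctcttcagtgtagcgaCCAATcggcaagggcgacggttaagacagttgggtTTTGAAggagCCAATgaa
Top2a: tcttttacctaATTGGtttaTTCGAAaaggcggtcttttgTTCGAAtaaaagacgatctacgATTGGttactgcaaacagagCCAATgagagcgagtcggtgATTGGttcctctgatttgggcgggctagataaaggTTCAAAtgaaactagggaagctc
Kif11: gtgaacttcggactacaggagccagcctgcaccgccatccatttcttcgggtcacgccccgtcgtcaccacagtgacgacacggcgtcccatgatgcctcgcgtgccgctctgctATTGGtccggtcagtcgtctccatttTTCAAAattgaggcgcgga
Ccnb2: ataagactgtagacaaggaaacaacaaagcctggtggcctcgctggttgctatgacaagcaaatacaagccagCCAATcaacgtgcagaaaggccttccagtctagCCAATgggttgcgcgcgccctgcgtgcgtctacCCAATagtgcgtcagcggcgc
Birc5: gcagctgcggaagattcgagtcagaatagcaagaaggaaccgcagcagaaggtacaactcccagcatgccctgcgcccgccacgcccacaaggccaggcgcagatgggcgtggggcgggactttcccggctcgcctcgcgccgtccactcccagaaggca
The stretches lie at chr10:69352913-69353072 (minus strand) for Cdk1, chr2:164769769-164769928 (plus strand) for Ube2c, chr4:118437344-118437503 (minus strand) for Cdc20, chr11:99024190-99024349 (minus strand) for Top2a, chr19:37376222-37376381 (plus strand) for Kif11, chr9:70421555-70421714 (minus strand) for Ccnb2 and chr11:117849077-117849236 (plus strand) for Birc5. Cdk1 holds a CCAAT box starting 48 bases before the start and a CHR at 15 bases before it, and Kif11 has the same order with the box at -45 and the CHR at -19. Top2a holds 3 CHR and 4 CCAAT matches in its 160 bases. In Ccnb2, 3 CCAAT boxes stand at -87, -54 and -21, and a CHR lies just past the start, outside the stretch shown. Birc5 holds neither motif.

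RefSeq windows from 250 bases before to 50 after the start were matched for 33 of the 40 genes. A CHR was present in 27 of the 33 (81.8%), against 19.4% of the first windows of 27025 genes and 13.0% of the 4804 matched genes that reached 20 CPM in either library. A CCAAT box was present in 25 (75.8%), against 37.9% and 38.2%. Both motifs stood in 23 of 33 windows (69.7%), against 7.70% of all windows and 5.33% of those of genes at 20 CPM. The CHR was missing from Birc5, Ccnb1, Cenpe, Nuf2, Nusap1 and Tacc3, and 4 of these 6 (Birc5, Nuf2, Nusap1 and Tacc3) had neither motif. The 2 motifs can share their end bases and each match was counted. A match describes the letters in the window and is not evidence of binding.

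The first comparison was between the sorted fractions, gene by gene. All 40 genes had a lower CPM in GFP+ than in GFP- cells. Together they took 12428 UMIs (0.104% of all UMIs) in GFP+ cells and 73581 (0.166%) in GFP- cells, a ratio of 0.624 (0.612 to 0.636). The ratio was below 1 with its whole interval for 39 genes, the exception being Cdc25c at 0.798 (0.567 to 1.10). Of the 26 genes that reached 20 CPM in at least 1 library, 17 were lower in GFP+ by at least 1.5-fold and 0 were higher. Among all 6007 genes at that level, 2.63% were lower and 6.94% higher by 1.5-fold. Some of the 26, such as Cenpe and Ccnb1, reached 20 CPM only in GFP- cells, which favours a lower call. The same rule was applied to all genes, here and in the class comparisons below. The median log2 ratio was -0.67 over the 26 genes and -0.11 over all 6007, of which 65.4% lay below a ratio of 1. With a scaling by the median of ratios, which sets the typical gene to no difference, the summed ratio was 0.673 and 12 of 26 genes were lower by 1.5-fold. The share of all genes lower under that scaling was not computed.

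**Figure D1:**
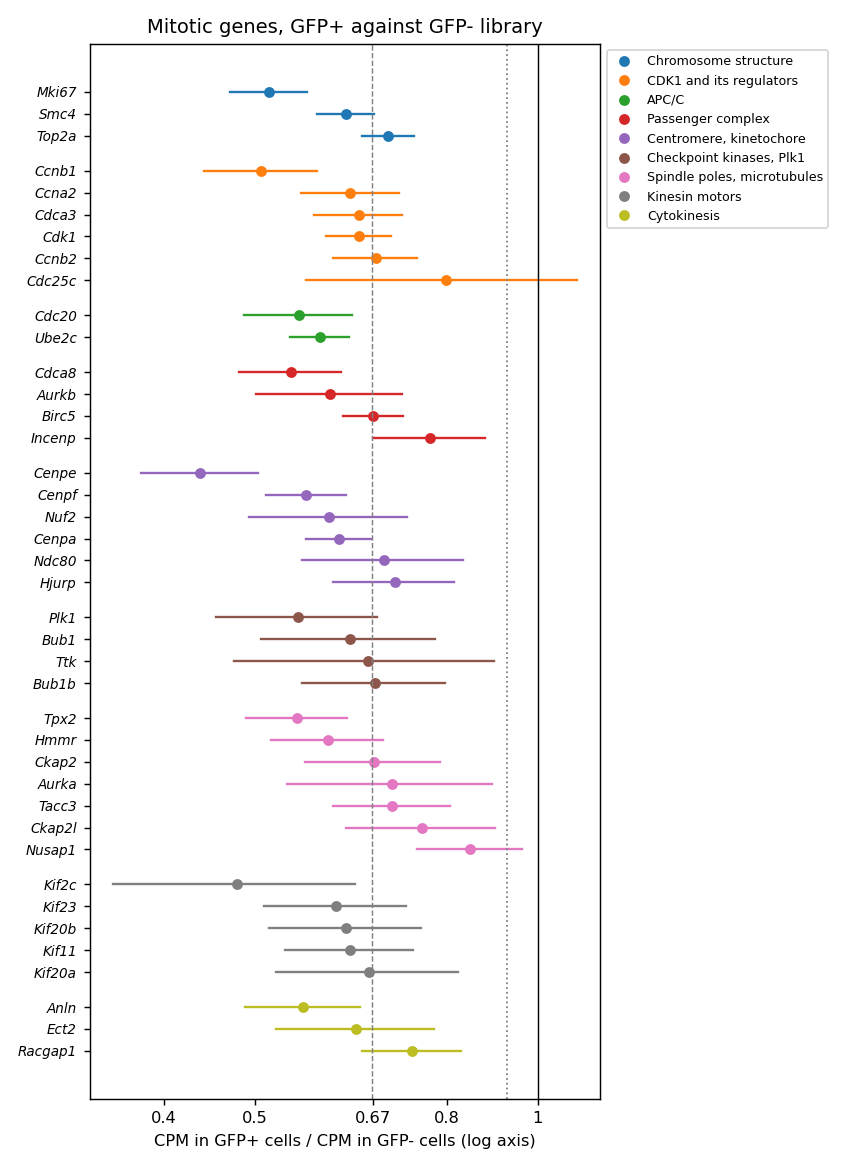
Ratio of CPM in GFP+ cells to CPM in GFP- cells (log axis) for each of the 40 genes, grouped and coloured by role, with 95% counting intervals as bars. The dashed line marks 1.5-fold lower, the dotted line the median of all genes at 20 CPM and the solid line no difference; all 40 points lie left of the solid line, from 0.437 (Cenpe) to 0.847 (Nusap1).

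The genes of chromosome structure and proliferation differed in their ratios. Mki67, which encodes a protein that coats mitotic chromosomes and is the standard proliferation marker, stood at 41.2 CPM in GFP+ and 79.7 CPM in GFP- cells, a ratio of 0.517 (0.470 to 0.568). Smc4, a core subunit of condensin, stood at 76.0 and 122 CPM (ratio 0.624). Top2a, the topoisomerase that untangles sister DNA (chr11:98992943-99024189, minus strand, mm10), stood at 94.6 and 137 CPM, a ratio of 0.693 (0.650 to 0.738). The counting intervals of Mki67 and Top2a do not touch. They leave out the spread between cells, and 10 GFP+ cells held 37.4% of the Mki67 and 44.0% of the Top2a UMIs.

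The ratios of the cyclin genes also differed, by intervals that leave out the spread between cells. Ccnb1, encoding the main mitotic cyclin B, was at 19.7 CPM in GFP+ and 38.8 CPM in GFP- cells (ratio 0.508, 0.441 to 0.582). Its paralog Ccnb2 was at 36.6 and 54.5 CPM (ratio 0.672, 0.606 to 0.745). Cdk1 itself (chr10:69335146-69352938, minus strand) was at 61.1 and 94.7 CPM, a ratio of 0.645 (0.596 to 0.698). Ccna2, the cyclin that spans S phase and G2, had a ratio of 0.631 and Cdca3, which promotes entry into mitosis, 0.645. Cdc25c, a phosphatase that activates CDK1, was at 3.84 and 4.81 CPM, and the interval of its ratio reached past 1. The smallest group ratio by role was that of the anaphase-promoting complex, 0.579 (0.543 to 0.616). Its activator Cdc20 stood at 21.6 and 38.8 CPM (0.557) and its ubiquitin-conjugating enzyme Ube2c at 73.2 and 125 CPM (0.586).

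The chromosomal passenger complex corrects faulty kinetochore attachments and later directs cleavage. Its scaffold Incenp had a ratio of 0.767 (0.669 to 0.878), its kinase Aurkb 0.601, its targeting subunit Birc5 (survivin) 0.668 and Cdca8 (borealin) 0.546 (0.481 to 0.618). Cdca8 and Incenp thus had separate counting intervals, which leave out the spread between cells, although their products sit in 1 complex. Among centromere and kinetochore genes, Cenpe, the kinesin that moves chromosomes to the spindle equator (chr3:135212537-135273611, plus strand), had the lowest ratio of all 40 genes, 17.9 against 41.0 CPM (0.437, 0.378 to 0.504). Cenpf, a large corona protein, was at 39.1 and 69.1 CPM (0.567). Cenpa, the histone variant of centromeres, was at 58.9 and 96.0 CPM (0.614). Hjurp, the chaperone that deposits CENP-A, was at 17.9 and 25.5 CPM (0.704). The Ndc80 complex genes Ndc80 and Nuf2, which bind the microtubule end, stood under 20 CPM with ratios of 0.686 and 0.60.

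The 4 checkpoint and Polo-like kinase genes were all under 20 CPM and their ratios ran from 0.556 (Plk1, a kinase of mitotic entry and spindle assembly) to 0.671 (Bub1b, encoding BUBR1), with Bub1 at 0.631 and Ttk (MPS1) at 0.659. Spindle pole and microtubule genes had the highest group ratio, 0.669 (0.633 to 0.708). Within them Tpx2, which nucleates spindle microtubules and activates Aurora A, was at 24.7 and 44.6 CPM (0.554). Nusap1, a microtubule bundling protein (chr2:119618298-119651244, plus strand), was at 24.6 and 29.1 CPM and had the highest ratio of the 40, 0.847 (0.744 to 0.962). Hmmr, a spindle-pole protein and hyaluronan receptor, was at 0.598. The microtubule-associated Ckap2 and its relative Ckap2l were at 0.669 and 0.752. Aurka (Aurora A), the kinase of spindle poles, and Tacc3, its substrate that crosslinks spindle fibres, were at 0.699 and 0.700. Among motors, Kif2c, a microtubule depolymerase of the centromere, had 4.42 and 9.24 CPM (0.479, 0.353 to 0.638), below the 20 CPM level. Kif11 (Eg5), which pushes spindle poles apart, was at 0.631. The kinesins of the central spindle and cytokinesis followed, Kif20a at 0.660, Kif20b at 0.625 and Kif23, a subunit of centralspindlin, at 0.610. The cytokinesis genes were at 0.563 for Anln (anillin, which organises the contractile ring), 0.641 for Ect2 (which activates RhoA) and 0.735 for Racgap1 (the partner of KIF23). Ube2c, Ccna2, Cdc20, Tacc3, Nusap1 and Kif20a each overlap a gene on the opposite strand (Tnnc2, Exosc9, Elovl1, Tmem129, Oip5 and Cdc23), and the labels and file headers do not say whether counting used strand.

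The share of cells with a UMI gave the same direction once depth was matched. After each cell of at least 5000 UMIs was thinned to 5000 UMIs (538 GFP+ and 2493 GFP- cells, leaving out 66 and 190), all 40 genes were detected in a lower share of GFP+ cells, with separate intervals for 18. How many of all genes were detected in a lower share of GFP+ cells was not computed. Detection of Smc4 was 21.2% in the GFP+ and 29.4% in the GFP- library, Ube2c in 8.36% and 14.9%, and Kif2c in 0.743% and 2.65%. Free RNA carried these transcripts too: in barcodes of 1 to 100 UMIs they took 0.0907% of UMIs in the GFP+ and 0.146% in the GFP- library. The cell CPM was 1.26 and 1.13 times the empty-droplet CPM at the median gene. Cells low for both the S-phase and the mitotic genes held less than the empty droplets, for Cdk1 11.9 CPM against 78.7 CPM in the GFP+ library and 15.1 against 96.0 CPM in the GFP- library. The part of free RNA in the library difference was not tested.

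The choice of cells mattered to the size of the difference. With at least 3000 UMIs and at most 5% mitochondrial UMIs, 566 GFP+ and 1675 GFP- cells remained (93.7% and 62.4%), the summed ratio was 0.498 (0.488 to 0.508), and 32 of 33 genes at 20 CPM were lower by 1.5-fold, where 3.97% of all genes were. GFP- cells above 5% mitochondrial UMIs numbered 943 (35.1%) and held 0.0826% of their UMIs in the 40 genes, against 0.205% in the remaining GFP- cells. In the GFP+ library only 19 cells lay above 5%, with 0.166% against 0.103%. Macrophage markers were higher in the GFP+ library. Without cells of at least 10 Lyz2 UMIs the ratio was 0.637 and 18 of 27 genes were lower, where 2% of all genes were.

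The UMIs of the 40 genes sat in few cells. The top 10% of cells held 88.8% of them in the GFP+ and 81.4% in the GFP- library. In the GFP+ library 10 cells held 36.7%, against 8.08% in the 10 top cells of the larger GFP- library, so the GFP+ values rest on few cells and the counting intervals do not cover that. The median cell had 2 UMIs of the 40 genes in either library, and 156 GFP+ (25.8%) and 448 GFP- cells (16.7%) had none. Cells with at least 0.5% of their UMIs in the 40 genes, called spindle-high below, numbered 22 of 604 in GFP+ (3.64%, 2.30 to 5.46) and 202 of 2683 in GFP- (7.53%, 6.56 to 8.59). This is a range of a score and not a cell type, and 7 and 70 cells lay between 0.4% and 0.6%. At 0.1% the shares were 9.93% and 17.9%, and at 1% they were 1.82% and 2.98%. Spindle-high cells were deeper than the rest, with a median of 29417 against 18103 UMIs in GFP+ and 24249 against 14286 in GFP-. After thinning to 5000 UMIs they had a median of 24 and 21 of the 40 genes detected, against 0 and 1 in the other cells. The same 40 genes chose these cells, so this contrast largely follows from the cut.

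**Figure D2:**
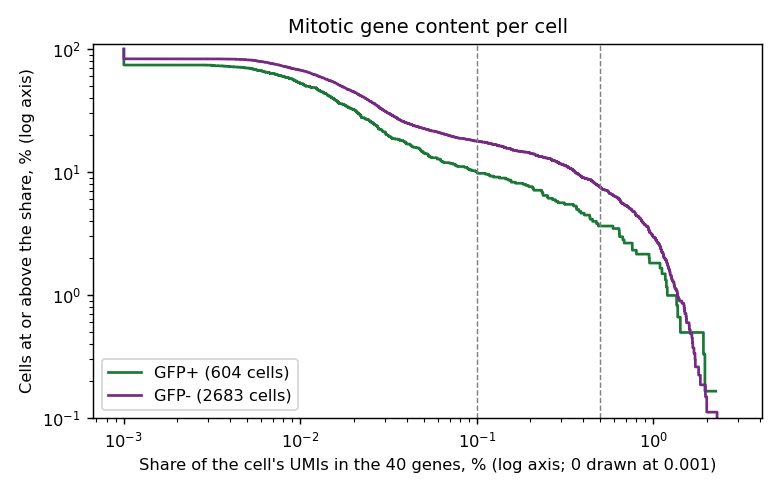
Percentage of cells (log axis) at or above a given share of their UMIs in the 40 genes (log axis, 0 drawn at 0.001%), for 604 GFP+ and 2683 GFP- cells; dashed lines mark 0.1% and 0.5%. The GFP+ curve lies below the GFP- curve at both lines (9.93% against 17.9% and 3.64% against 7.53%), and the curves cross among the few cells above 1%.

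Among spindle-high cells the ratios of single genes between fractions were not in one direction. These cells held 1.01% of their UMIs in the 40 genes in GFP+ and 0.936% in GFP-, a ratio of 1.08 (1.06 to 1.11). The same 40 genes and the same cut chose the cells in both libraries. This summed ratio therefore cannot show whether the library difference is lost in these cells. For a single gene the other 39 genes chose the cells at the same cut, which partly sets the balance of higher and lower genes. The GFP+ value was then lower for 12 genes and higher for the rest, with intervals above 1 for 10 genes and below 1 for 1. Nusap1 was highest, 343 against 209 CPM (1.64, 1.42 to 1.89), Top2a had 1027 against 811 CPM (1.27, 1.17 to 1.37), and Smc4 was the gene below, 430 against 503 CPM (0.854, 0.754 to 0.964). Cenpe was 225 against 264 CPM (0.854, 0.718 to 1.01). In the other cells the summed ratio was 0.818 (0.794 to 0.842), with 34 genes below 1, 22 of them by the whole interval. Only 22 GFP+ cells stand behind the spindle-high values.

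The 7 myogenic markers summed to 2260 CPM in spindle-high and 2908 CPM in other GFP+ cells, and to 1841 and 2918 CPM in GFP- cells. At 5000 UMIs per cell, Pax7 was detected in 52.4% of spindle-high and 49.7% of other GFP+ cells, and in 33.7% and 47.4% of GFP- cells. Myod1 was detected in 23.8% and 20.7% of GFP+ and in 29.0% and 20.9% of GFP- cells, and Myog in 19.0% and 16.2% of GFP+ and in 13.99% and 22.8% of GFP- cells. The GFP+ shares rest on 21 spindle-high cells and overlap in their intervals. Myf5, a factor of committed progenitors, was detected in 52.4% and 53.0% of GFP+ and in 39.4% and 51.1% of GFP- cells. In cells of at least 10 Lyz2 UMIs, taken as a background, these 4 genes were detected in at most 1 of 66 GFP+ cells (1.52%, median depth 13801.5 UMIs) and in at most 4 of 41 GFP- cells (9.76%, median 8971 UMIs). Empty droplets held 76.6 CPM of Pax7 and 979 CPM of Myog in the GFP+ library, against 185 and 879 CPM in the cells, and 73.4 and 731 CPM in the GFP- library, against 142 and 771 CPM. The 6 macrophage markers summed to 1526 CPM in spindle-high and 3418 CPM in other GFP+ cells, and to 16.9 and 394 CPM in GFP- cells. Among GFP+ spindle-high cells 1 had at least 50 Lyz2 UMIs and the others had fewer than 3, so the Lyz2 part of that sum rests on 1 cell. The 5 mural markers summed to 1567 and 1429 CPM in GFP+ and to 1541 and 2085 CPM in GFP- cells. Of these, Rgs5 alone stood at 7.36 and 1.42 CPM in GFP+ and at 278 and 274 CPM in GFP- cells. Of the 78 GFP- cells with at least 50 UMIs of the mural gene Rgs5, 9 were spindle-high (11.5%), so mitotic transcripts were not limited to Rgs5-low cells. The part of mural cells in the spindle-high shares was not tested. Without cells of at least 10 Lyz2 UMIs the spindle-high shares of the libraries were 3.94% and 7.64%.

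The genes differed in how tightly their UMIs were held in spindle-high cells. Nusap1 had 79.0% of its GFP+ and 86.2% of its GFP- UMIs there, and Cenpf 78.0% and 82.0%. In the GFP- library Aurka, the spindle pole kinase, reached 85.0%. Smc4 had 32.1% and 48.7%, and Hjurp 36.3% and 42.0%. The 5 lowest genes were shared by both libraries for 4 of 5 and the 5 highest for 3 of 5. Over the 40 genes the median was 58.4% in GFP+ and 69.5% in GFP-. These shares depend on how much of each library the spindle-high cells make up. With the cells chosen for Nusap1, they held 5.67% of all GFP+ and 12.0% of all GFP- UMIs. The CPM ratio of spindle-high to other cells went the other way, with a median of 23.3 in GFP+ and 16.8 in GFP-.

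A list of 37 S-phase genes (replication licensing, polymerase and nucleotide synthesis genes) was then used to split cells further. S-phase genes took 0.0882% of UMIs in GFP+ and 0.106% in GFP- cells, a ratio of 0.832 (0.815 to 0.850), nearer to 1 than that of the mitotic genes. Cells with at least 0.25% of their UMIs in the S-phase list but not spindle-high numbered 31 in GFP+ (5.13%) and 167 in GFP- (6.22%). Spindle-high cells below that S-phase level numbered 16 (2.65%) and 139 (5.18%), and 6 and 63 cells were high for both. All 40 genes were higher in S-phase-only than in low cells, by the whole interval in both libraries. All 40 were higher again in spindle-only than in S-phase-only cells, also by the whole interval in both. For each gene the rest of the 40 genes set the spindle ranges, so this second step largely follows from the cut. How many of all genes were higher at either step was not computed. The median ratio of spindle-only to S-phase-only cells was 4.65 in GFP+ and 4.39 in GFP-.

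The ratios set apart genes already abundant in S-phase-high cells from genes abundant mainly in spindle-only cells. In GFP- cells Top2a went from 16.8 CPM in low cells to 324 CPM in S-phase-only, 1013 CPM in double-high and 734 CPM in spindle-only cells. Cdk1 went from 15.1 to 224, 537 and 525 CPM across the same ranges. Both were thus as high or higher in double-high cells as in spindle-only cells. Aurkb followed the same order with 1.66, 40.7, 140 and 117 CPM. Cenpe and Cenpf behaved differently. Cenpe had 9.47, 24.9, 165 and 309 CPM, 12.4 times higher in spindle-only than in S-phase-only cells (10.1 to 15.4). Cenpf had 9.90, 49.7, 302 and 559 CPM, a ratio of 11.2 (9.71 to 13.0). Against the double-high cells, Cdc20 stood 2.86 times higher in spindle-only cells (2.42 to 3.38), Cenpa 2.73 times (2.44 to 3.06) and Ccnb1 2.39 times (2.06 to 2.79).

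**Figure D3:**
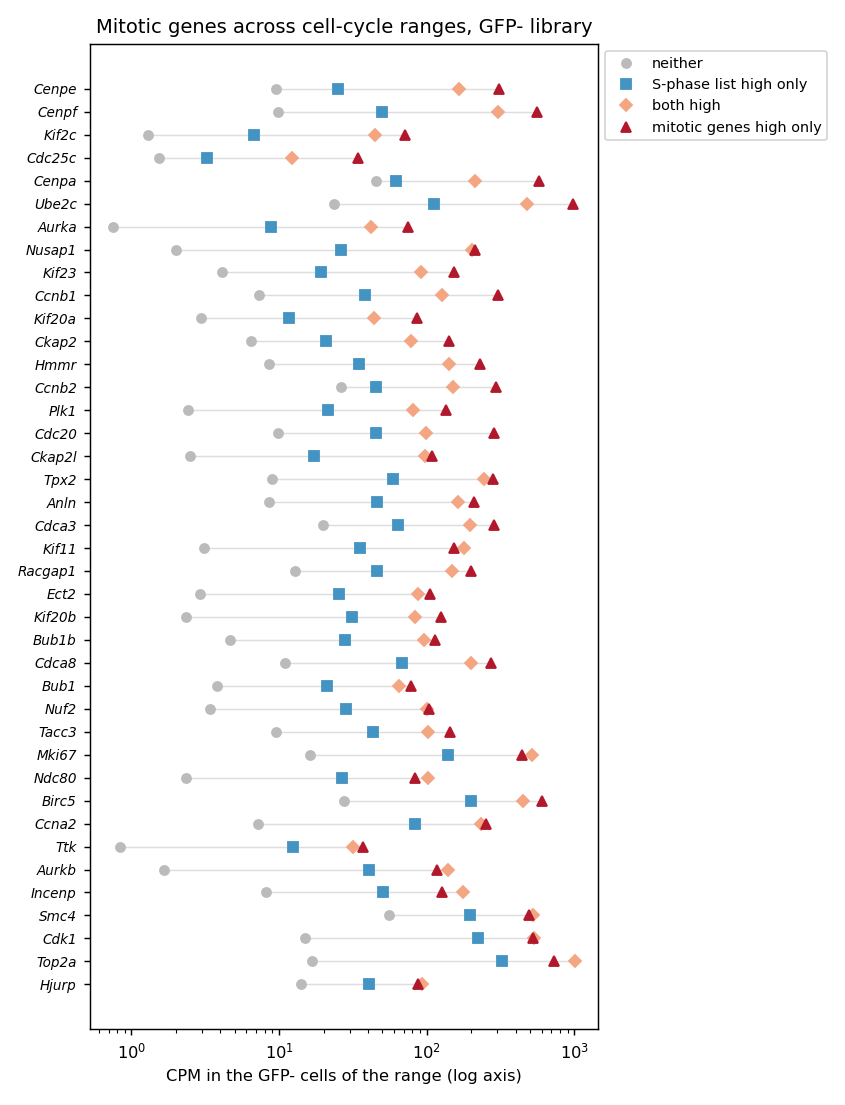
CPM (log axis) of each of the 40 genes in 4 ranges of GFP- cells, defined by an S-phase list at 0.25% and the other 39 mitotic genes at 0.5% of UMIs, ordered by the ratio of spindle-only to S-phase-only cells. Grey circles are cells low for both, blue squares S-phase only, orange diamonds both and red triangles mitotic genes only; Cenpe (12.4) is at the top and Hjurp (2.14) at the bottom.

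The order was largely shared between the libraries although the GFP+ ranges held few cells. Of the 10 genes with the highest ratio of spindle-only to S-phase-only cells in each library 8 were shared, and of the 10 lowest 8. In GFP+ cells the highest ratios were those of Ckap2 (12.1), Cenpf (11.7, 8.98 to 15.3), Nusap1 (11.2) and Cenpe (10.7, 7.26 to 16.3). Hjurp was the lowest in GFP- cells at 2.14 (1.77 to 2.60) but stood at 3.94 (2.58 to 6.10) in GFP+ cells.

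The cells were next split by Myog, a gene of cells entering differentiation. Empty droplets held nearly as much Myog as cells or more (979 against 879 CPM in GFP+, 731 against 771 CPM in GFP-). A single Myog UMI can thus be free RNA, and its part in the split was not tested. Cells with a Myog UMI were deeper, as were spindle-high cells, so detection was called at an equal number of UMIs, as at least 1 Myog UMI after thinning to 5000. Only the marker call was thinned: the 40 genes were summed over all UMIs of the cells, and the classes still differed in depth (medians of 25350.5 against 18815.5 UMIs in GFP+ and 17121.5 against 14730 in GFP- cells). Myog-detected cells then held 0.0811% of their UMIs in the 40 genes against 0.111% in the other cells of the GFP+ library, a ratio of 0.729 (0.694 to 0.765), and 0.109% against 0.187% in the GFP- library, 0.583 (0.572 to 0.595). In GFP+ cells 11 of 22 genes at 20 CPM were lower by 1.5-fold, where 23.1% of all genes were, and in GFP- cells 29 of 31, where 14.7% were. None of these genes was higher by 1.5-fold in either library, where 14.4% and 8.31% of all genes were. The median log2 ratio was -0.51 and -0.82 (-0.03 and -0.05 over all genes). Hmmr had 7.37 against 23.9 CPM in GFP+ cells (0.308, 0.179 to 0.498). Kif20b had 8.82 against 21.3 CPM in GFP- cells (0.414). Racgap1 differed least in GFP- cells (33.9 against 37.5 CPM, 0.905).

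Not all genes were lower in the GFP+ Myog-detected cells, where 34 of 40 had a ratio below 1. Among those above 1, Cdk1 was at 71.3 CPM in Myog-detected and 59.7 CPM in other cells (1.19, with an interval that starts just above 1 and ends at 1.42), and Top2a at 111 and 92.4 CPM (1.20, 1.04 to 1.37). Aurkb, under 20 CPM, had a ratio of 1.37 (0.919 to 2.0), and Nusap1 one of 1.14 (0.859 to 1.51). In GFP- cells all 40 genes were lower in Myog-detected cells. With at least 1 UMI and no thinning the result was another: in GFP+ cells 16 of 22 genes were then higher by 1.5-fold in Myog-detected cells (14% of all genes), and in GFP- cells 0 of 28 were higher (6.44%) and 0 lower (9.94%). The detected cells had a median of 25167 against 16362 UMIs in GFP+ and 17417.5 against 13574 UMIs in GFP- cells.

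**Figure D4:**
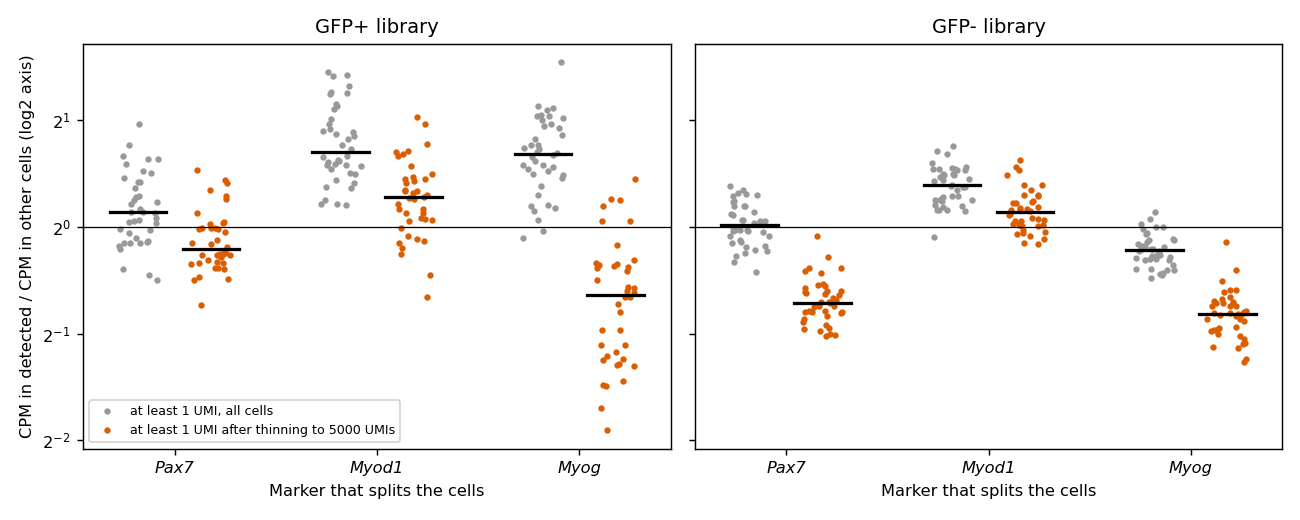
Ratio of CPM in marker-detected to other cells (log2 axis) for each of the 40 genes, with detection as at least 1 UMI in all cells (grey) and at least 1 UMI after thinning to 5000 UMIs (orange); black bars are medians over the 40 genes. Thinning lowers the black bar for each marker in both libraries, and for Myog in GFP- cells all 40 orange points lie below 1.

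Cells with high Myog were examined next. In cells of at least 50 Myog UMIs (53 GFP+ and 238 GFP- cells) the 40 genes took 0.0605% and 0.0697% of UMIs, the lowest of the 5 Myog levels in each library. Cells with 3 to 9 Myog UMIs held 0.316% in GFP+ (13 cells) and 0.176% in GFP- (100 cells), and cells with no Myog UMI 0.0877% and 0.174%. The high-Myog cells were deeper than cells with no Myog UMI (medians of 26986 against 16362 and 19006.5 against 13574 UMIs). Against cells without a Myog UMI, 27 of 28 genes were lower by 1.5-fold in GFP- high-Myog cells (24.5% of all genes) and 8 of 15 in GFP+ (29.5%). Some of them, such as Anln in GFP- cells (10.6 against 35.9 CPM), reached 20 CPM only in the cells without Myog. Mki67 had 19.5 against 86.1 CPM in GFP- cells (0.226, 0.184 to 0.275) and 21.1 against 38.5 CPM in GFP+ cells. Cenpf had 28.6 against 73.9 CPM in GFP- and 11.8 against 35.1 CPM in GFP+ cells. Cdk1 had 38.2 against 96.2 CPM in GFP- but 52.3 against 47.2 CPM in GFP+ cells (1.11, 0.859 to 1.41). Of the high-Myog cells, 2 GFP+ (3.77%) and 3 GFP- cells (1.26%) were spindle-high, against 3.18% and 7.72% of cells with no Myog UMI. The GFP+ share rests on 2 cells, and its interval (0.460 to 13.0%) holds that of cells with no Myog UMI (1.79 to 5.20%). It therefore cannot show whether the share was lower in GFP+ high-Myog cells.

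**Figure D5:**
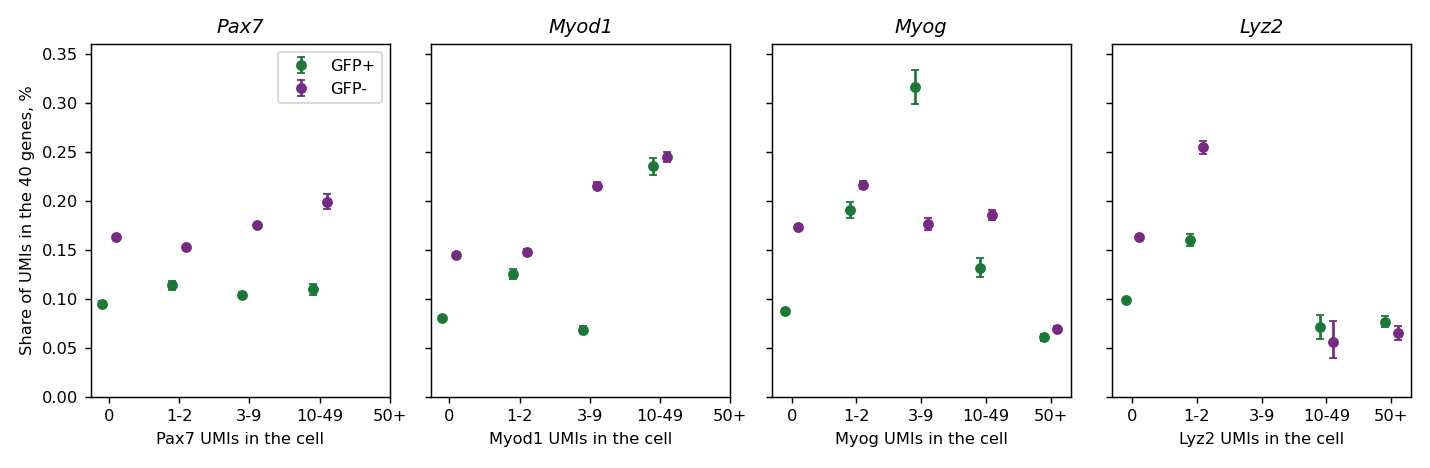
Share of UMIs in the 40 genes (percent) in cells grouped by their number of Pax7, Myod1, Myog or Lyz2 UMIs, with 95% counting intervals, for GFP+ (green) and GFP- (purple) cells; groups under 10 cells are not drawn. The shares fall to 0.0605% and 0.0697% at 50 or more Myog UMIs and reach 0.235% and 0.245% at 10 to 49 Myod1 UMIs.

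Myod1 went the other way. With detection at 5000 UMIs, Myod1-detected cells held 0.124% against 0.0987% of UMIs in the 40 genes in GFP+ (ratio 1.26, 1.21 to 1.31) and 0.184% against 0.162% in GFP- cells (1.14, 1.12 to 1.15). They were also deeper, with medians of 24023 against 19171 UMIs in GFP+ and 17642.5 against 14721 in GFP- cells. Only 3 of 20 genes were higher by 1.5-fold in GFP+ cells (10.7% of all genes), Cdk1, Top2a and Cdca8, and 1 of 29 in GFP- cells (5.19%), Kif11. Cdca8 had 39.02 against 20.0 CPM (1.95, 1.53 to 2.48) and Kif11 had 34.2 against 22.1 CPM (1.55, 1.36 to 1.76). In cells of at least 10 Myod1 UMIs, against cells with none, all 35 genes at 20 CPM were higher by 1.5-fold in GFP+ cells (22.8% of all genes) and 25 of 34 in GFP- cells (15.9%). Some of these genes reached 20 CPM only in the high-Myod1 cells, such as Aurkb in GFP+ cells (42.7 against 6.92 CPM). That favours higher calls, among all genes too. Top2a then had 286 against 59.8 CPM in GFP+ and 234 against 107 CPM in GFP- cells. These cells had medians of 33482 and 27194.5 UMIs against 15856 and 13208, and the part of depth in this contrast was not tested. The levels in between were not ordered in GFP+ cells, since cells with 3 to 9 Myod1 UMIs held 0.0686% of UMIs in the 40 genes, less than the 0.080% of cells with none. At least 1 Myod1 UMI without thinning gave 17 of 22 genes higher in GFP+ (10.9% of all genes) and 4 of 32 in GFP- cells (5.25%).

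For Pax7 the direction depended on how detection was called. With at least 1 UMI and no thinning, Pax7-detected cells held 0.107% of UMIs in the 40 genes against 0.0947% in the other GFP+ cells (1.13, 1.09 to 1.18) and 0.167% against 0.163% in GFP- cells (1.03, 1.01 to 1.04). In GFP- cells the share was 0.163% with no Pax7 UMI, 0.153% at 1 to 2, 0.176% at 3 to 9 and 0.199% at 10 to 49. With detection at 5000 UMIs, Pax7-detected cells held 0.0981% against 0.110% in GFP+ (0.891, 0.860 to 0.924) and 0.124% against 0.199% in GFP- cells (0.622, 0.612 to 0.632). These detected cells were shallower, with medians of 17266.5 against 23579.5 UMIs in GFP+ and 14187 against 16318.5 in GFP- cells, and the part of depth was not tested. In GFP+ cells 1 of 21 genes, Cdk1, was lower by 1.5-fold (12% of all genes), and in GFP- cells 25 of 31 were (5.82%). Ccnb1 had 24.7 against 49.9 CPM in GFP- cells (0.495, 0.444 to 0.552). Cdc20 had 24.8 against 49.8 CPM (0.497), while Hjurp hardly differed, 24.6 against 26.0 CPM (0.946). Without thinning 3 of 22 genes were higher by 1.5-fold in GFP+ (16.4% of all genes) and 0 of 27 in GFP- cells in either direction (6% higher, 8.11% lower). The difference between the libraries in these ratios was not tested.

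The library difference was also computed within the marker classes, with detection at 5000 UMIs. Among Pax7-detected cells the summed GFP+ to GFP- ratio was 0.791 (0.767 to 0.816), with 2 of 23 genes lower by 1.5-fold (2.8% of all genes). Among cells without Pax7 it was 0.552 (0.539 to 0.566), with 29 of 31 lower (4.96%). With and without Myog the ratios were 0.745 and 0.596, with 10 of 19 (6.94%) and 26 of 31 genes (3.55%) lower. With and without Myod1 they were 0.676 and 0.609, with 14 of 28 (5.4%) and 20 of 26 genes (3.35%) lower. All 6 ratios were below 1, but the contrast between classes depended on the detection rule. With at least 1 UMI and no thinning, the ratio was 0.641 among Pax7-detected cells, with 15 of 26 genes lower (1.76% of all genes), and 0.581 among the rest. It was 0.920 among Myog-detected cells, with 1 of 24 genes lower (4.77%), and 0.505 among the rest.

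Lyz2, a lysozyme gene of macrophages, was used for the last split. Cells with at least 10 Lyz2 UMIs numbered 71 in GFP+ (11.8%) and 51 in GFP- (1.90%), and 1 cell in each library was spindle-high. They held 0.0754% of UMIs in the 40 genes against 0.107% in the other GFP+ cells, and 0.0641% against 0.168% in GFP- cells. In GFP+ cells 11 of 20 genes were lower by 1.5-fold (43.3% of all genes) and 1 was higher (27.9%), and in GFP- cells 24 of 27 were lower (35.7%). With at least 1 Lyz2 UMI at 5000 UMIs, 11 of 20 (37%) and 24 of 27 genes (16.3%) were lower. Cenpf then had 6.92 against 44.3 CPM in GFP+ cells (0.156, 0.0744 to 0.290). Cenpe had 2 UMIs in the GFP- Lyz2-detected cells, 2.01 against 42.3 CPM (0.0475, 0.00575 to 0.172). Incenp did not differ beyond its interval in either library (1.14 and 0.781). Between fractions the Lyz2-detected cells had a summed ratio of 1.14 (1.03 to 1.27), and the rest 0.646 (0.633 to 0.659).

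Other mitotic genes outside the 40 were given as a reference list of 80, among them further kinetochore, condensin and kinesin genes. Of these, 77 had a ratio below 1 between the fractions, 58 by the whole interval. Only 18 reached 20 CPM, and 2 of them were lower by 1.5-fold (2.63% of all genes) and 0 higher (6.94%). These were Prc1, which bundles the central spindle (0.611, 0.557 to 0.67), and Smc2, the condensin partner of Smc4 (0.661, 0.608 to 0.717). The median log2 ratio of the 18 was -0.39, between -0.67 for the 40 genes and -0.11 for all genes. The CHR and CCAAT motifs stood together in 43.8% of the 64 matched windows of this list.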

How the data were processed

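Both droplet libraries, 1 GFP+ and 1 GFP-, were analysed, grouped by their labels. The authors deposited unfiltered matrices of raw UMI counts, made with Cell Ranger 4 per the file headers. The submitters' processing notes name Cell Ranger, Seurat and mm10. Neither the annotation release nor the strand and other counting settings are given in the sources used here. The counts were used as deposited, and CPM, ratios and shares were computed here.

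UMIs were summed over cells (at least 1000 UMIs, at least 500 genes, at most 10% mitochondrial UMIs) and divided by the total of the same cells. Ratios carry exact conditional and shares exact binomial (Clopper-Pearson) 95% intervals. Genes of at least 20 CPM in at least 1 of the classes compared were counted as lower or higher at 1.5-fold. A gene could thus pass only through the class where it was high, which favours calls in that direction. Markers were called at 1 UMI (Lyz2 at 10), and after thinning at 1 UMI, with member UMIs summed unthinned. No doublet caller was run, and values without cells over 60000 UMIs (11 GFP+, 17 GFP-) were computed. No cells were clustered. All 40 genes were named by role, with the largest and smallest ratios in detail. Gene positions are from GENCODE M21 (mm10) and promoters from RefSeq (GRCm38.p6). The genes, lists and comparisons were chosen with earlier results of these data known. Ratios, calls and intervals were tested on simulated library totals, drawn without the clustering of UMIs in cells. Thinning, marker classes, spindle-high ranges and motif matching were not simulated. Scripts used scipy 1.17.1, numpy 2.4.6, pandas 2.3.3 and matplotlib 3.10.9 under Python 3.11.15. Alternatives covered cell filters, scaling, expression level, fold and detection rules.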

Additional observations from a re-analysis of the deposited data

Results flagged for a closer look

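Splitting cells by at least 1 Myog UMI gave opposite directions in the libraries. The median log2 ratio of the mitotic genes at 20 CPM, Myog-detected over other cells, was 0.70 in GFP+ and -0.19 in GFP- cells. The difference between the libraries was not tested, since each fraction has 1 library. With detection after thinning to 5000 UMIs the medians were -0.51 and -0.82, both negative.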

How the results depend on the processing

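No paired analysis was possible because each sorted fraction has 1 library. All 40 ratios between the fractions stayed below 1 under each of 5 cell filters and scalings. With at least 3000 UMIs and at most 5% mitochondrial UMIs, 32 genes were lower in GFP+ (17 as reported), the median log2 ratio was -1.01, the summed ratio was 0.498 and 9.67% of GFP- cells were spindle-high. The summed ratio was 0.637 without Lyz2 cells, 0.673 with median-of-ratios scaling and 0.598 as a mean of per-cell shares. At 5 CPM 26 of 39 genes were lower, with no expression filter 26 of 40, and at 2-fold 1 of 26. The share of all genes was not computed for these settings. Spindle-high cells at 0.3%, 1% and 0.1% were 5.63%, 1.82% and 9.93% of GFP+ and 11.6%, 2.98% and 17.9% of GFP- cells.

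The counts for detected markers (all at 1 UMI, Lyz2 at 10, unless said) moved most. For these counts the share of all genes was computed only under the main rule and after thinning. Counts under the other settings show how the numbers move and are not results about the 40 genes. Myog in GFP+: 11 genes lower after thinning and 13 at 50 UMIs, with 0 higher in both, and 5 higher at 3 UMIs or at 2-fold. Myog in GFP-: lower 13 at 3 UMIs, 29 after thinning and 28 at 50 UMIs. Pax7 in GFP+: lower 1 after thinning or without Lyz2 cells, higher 1 under the stricter cell filter and 0 at 2-fold, without Lyz2 cells or after thinning. Pax7 in GFP-: lower 25 after thinning, higher 1 at 3 UMIs. Myod1, higher: in GFP+ 6 at 2-fold, 3 after thinning and 35 at 10 UMIs, in GFP- 20 at 3 UMIs, 0 at 2-fold, 1 after thinning and 18 at 10 UMIs. Lyz2 at 1 UMI: 0 lower in both libraries, 4 higher in GFP+ and 6 in GFP-. Lyz2 in GFP+ otherwise: lower 5 at 2-fold, higher 0 at 2-fold or after thinning and 2 under the stricter filter. The causes were not tested. The 0.1% limit, Myog at 50 UMIs, Myod1 at 10 UMIs and Myog without cells over 60000 UMIs were chosen after seeing the data. The alternatives at 50 and 10 UMIs compare with all other cells, unlike the comparison with cells of 0 UMIs above. With 22 spindle-high GFP+ cells, gene values there rest on few cells, and 14 of the 40 genes lay under 20 CPM in both libraries.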
